A study of Mus musculus with 24 samples.

Results

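The let-7 family of microRNAs was followed in cauda epididymosomes, the extracellular vesicles of the fluid in the last segment of the mouse epididymis. Members were every microRNA reference whose name begins with mmu-let-7, together with mmu-miR-98-5p and the mmu-mir-98 hairpin. References of up to 35 bases were taken as mature arms and longer ones as hairpins. This gave 36 members, 22 mature and 14 hairpin, of 3212 microRNA references and of 115485 references in the 6 RNA classes. All animals were male C57BL/6J mice, 7 to 8 weeks old, fitted with osmotic pumps for 6 weeks. The pumps of the control group gave the vehicle, 50% DMSO. Daily doses were 2.5 mg/kg of DBP in the DBP group, 2.5 mg/kg of DEHP in the DEHP group, and 2.5 mg/kg of either agent together in the mixture group. DBP and DEHP are the usual abbreviations of the dibutyl and diethylhexyl esters of phthalic acid, both used as plasticisers. Each group had 6 libraries, given in the design text as 6 mice, and small RNA was sequenced from vesicles isolated out of the supernatant left after sperm had been pelleted. All of the let-7 values are therefore from bulk vesicle preparations, in which fewer vesicles that carry an RNA and less of that RNA per vesicle cannot be told apart.

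Let-7 was first known from the nematode, where it times the passage to the adult stage, and its mature sequence is nearly the same in animals as distant as fly and mouse. In mammals the family represses growth genes such as Hmga2, Lin28a and members of the Ras and Myc groups, and the RNA-binding protein LIN28 in turn blocks the cutting of let-7 precursors. Each precursor folds into a hairpin whose 5′ arm yields the guide strand and whose 3′ arm yields the usually rarer passenger strand. Let-7 miRNAs have been found by others in sperm and in epididymosomes of mice, and sperm take up part of their small RNA from such vesicles on their way through the epididymis.

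The mature sequences show why the family has to be read as a whole: 10 of the 22 mature members, let-7k included, share the seed GAGGUAG, the bases 2 to 8 that pair with targets. All 22 mature and 14 hairpin names were matched to RefSeq (GRCm38.p6), with lengths equal to those in the deposited tables. The 9 entries with a 5p name follow in the order of their reads, then let-7j, whose seed differs, and the 3′ arms with the most reads. Capitals mark the seed.
mmu-let-7c-5p: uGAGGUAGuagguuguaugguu
mmu-let-7a-5p: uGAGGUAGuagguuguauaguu
mmu-let-7f-5p: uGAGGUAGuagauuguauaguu
mmu-let-7b-5p: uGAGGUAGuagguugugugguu
mmu-let-7g-5p: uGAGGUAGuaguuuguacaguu
mmu-let-7d-5p: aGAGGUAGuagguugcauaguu
mmu-let-7i-5p: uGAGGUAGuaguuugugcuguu
mmu-let-7e-5p: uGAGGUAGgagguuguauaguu
mmu-miR-98-5p: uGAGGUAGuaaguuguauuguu
mmu-let-7j: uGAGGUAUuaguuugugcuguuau
mmu-let-7d-3p: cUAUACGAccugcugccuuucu
mmu-let-7a-1-3p: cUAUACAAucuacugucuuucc
Positions below count from 1 at the 5′ end, with the base of let-7a-5p first and that of the other entry last. None of the differences from let-7a-5p lay in the seed. Let-7c-5p differed by A19G, let-7f-5p by G12A and let-7e-5p by U9G alone. Let-7b-5p carried A17G and A19G, let-7g-5p carried G12U and U18C, and let-7d-5p carried U1A and U16C. Of the 36 pairs of 5p entries, 4 differ by 1 base and the most distant differ by 6. Of the 2468 reads on mature members, 2228 (90.3%) lay on entries with the seed GAGGUAG. Another 143 reads (5.79%) lay on the 4 passenger strands with the seed UAUACAA, 65 on let-7d-3p, and 2 on let-7j.

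Let-7 was a minor RNA of these libraries. The 36 members together held 7263 reads out of 270011147, 2468 on mature arms and 4795 on hairpins. They made up 0.0477% ± 0.00963 (SD, n = 24) of the reads of the microRNA class, hairpin references included. Of the 1863953 reads on mature references of the class, 2468 lay on let-7. Library totals over the 6 classes ran from 7944772 to 14704747 reads, and the summed mature arms had 56 to 174 reads per library. Levels below are in reads per 1000000 reads of the 6 classes (RPM). Reads were found on 34 members. Let-7a-2-3p and mature let-7k were at 0 in all 24 libraries, which allows up to 0.0111 RPM over the set. Their hairpins hold the same sequences and had reads, so this limit is for the entries and not for the arms. A further 11 mature members had 2 to 44 reads each, and the smallest hairpin counts were 19 on let-7j and 23 on mir-98. Among the 1978 mature references of the class, let-7c-5p ranked 24 by reads, let-7a-5p 34, let-7f-5p 40 and let-7b-5p 41. Of the marker miRNAs examined for other sources, the 4 muscle miRNAs summed to 16.1 ± 8.88 RPM and the 5 epithelial ones (the miR-200 family and miR-141) to 0.693 ± 0.422 RPM. The leukocyte list summed to 0.579 ± 0.362 RPM, and of the 3 erythrocyte miRNAs miR-451a and miR-144-3p were at 0. Libraries numbered 1 to 3 of each group were run on lane 6 and those numbered 4 to 6 on lane 7. Libraries 5 and 6 of every group, all on lane 7, mostly had higher scaling factors. These were 1.06 to 1.31 against 0.626 to 1.09 in the other 16, so the ranges overlapped. The summed mature let-7 level of libraries 5 and 6 was 7.78 ± 0.984 RPM (SD, n = 8) against 9.76 ± 2.28 RPM (SD, n = 16). These levels overlapped too, at 5.90 to 8.81 and 5.25 to 13.7 RPM.

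The guide strands formed an order led by let-7c-5p, a form differing from let-7a-5p at a single base. Let-7c-5p had 2.42 ± 0.948 RPM (SD, n = 24), ahead of let-7a-5p with 1.56 ± 0.553, let-7f-5p with 1.26 ± 0.517 and let-7b-5p with 1.23 ± 0.454. Then came let-7g-5p with 0.703 ± 0.324 RPM, let-7d-5p with 0.598 ± 0.272, let-7i-5p with 0.292 ± 0.204, let-7e-5p with 0.121 ± 0.107 and miR-98-5p with 0.0405 ± 0.0679. Neighbours in this order differed by more than the SD of their difference at 3 steps. Let-7c-5p exceeded let-7a-5p by 0.860 RPM on average (SD of the difference 0.824) and was the higher in 22 of 24 libraries. Let-7b-5p exceeded let-7g-5p by 0.528 RPM (SD 0.520) in 20 of 24, and let-7d-5p exceeded let-7i-5p by 0.306 RPM (SD 0.302) in 20 of 24. Let-7f-5p and let-7b-5p were the closest neighbours, with let-7f-5p higher in 11 libraries and lower in 12.

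**Figure D1:**
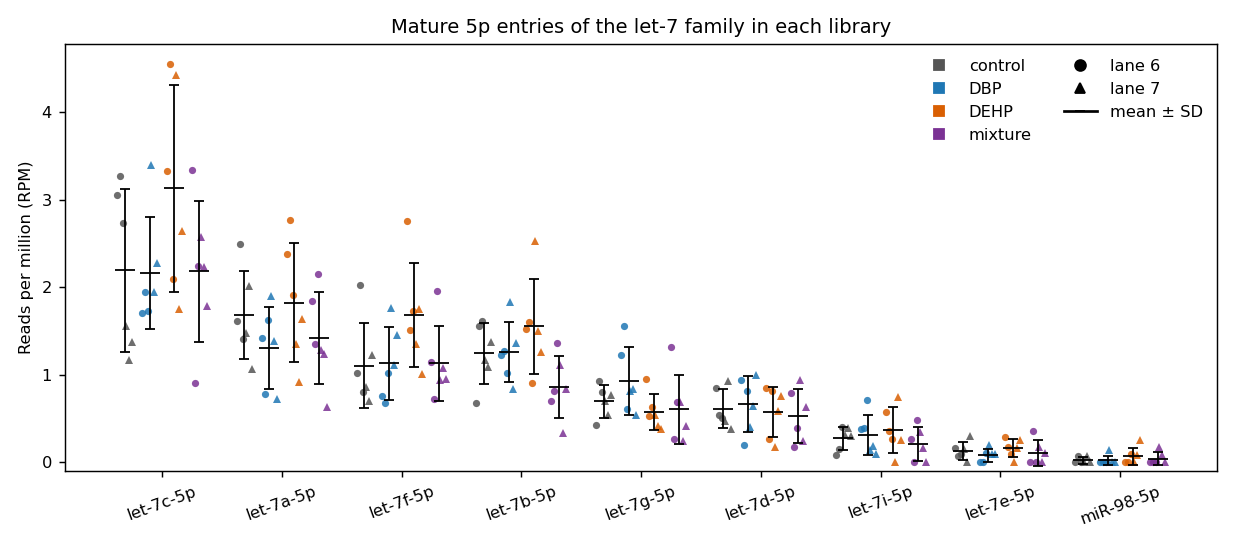
Level of the 9 mature 5p entries in RPM in each library, grouped by treatment, with circles for lane 6, triangles for lane 7 and bars for the mean ± SD of 6 libraries. Let-7c-5p reaches the highest values in every group, and for each entry the ranges of the 4 groups overlap.

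The observed share of reads on passenger strands differed between let-7 forms. For let-7a, let-7c and let-7f it pools the arms of 2 hairpins. Over all arms that carry a 5p or 3p name, 238 reads were 3′ beside 2228 that were 5′, or 9.65% (95% exact binomial interval 8.51 to 10.9, counting error only). For let-7d the share was 28.9% (23.1 to 35.3), from 65 reads on let-7d-3p beside 160 on let-7d-5p. The shares were 17.02% (10.1 to 26.2) for let-7i, 11.8% (8.77 to 15.4) for let-7f and 10.5% (7.93 to 13.7) for let-7a. Let-7c had 5.49% (3.91 to 7.46), let-7b 4.02% (2.22 to 6.66) and let-7g 3.06% (1.13 to 6.54). The interval of let-7d does not meet those of let-7a, let-7b, let-7c, let-7f and let-7g. These intervals pool the reads of 24 libraries and leave out the spread between them. Of the 65 reads on let-7d-3p, 12 came from DEHP replicate 2. The difference between these shares was not tested. Let-7a-1-3p and let-7c-2-3p have identical sequences and were given 50 and 35 reads, unequal in 18 of 24 libraries, so a read on that sequence was not counted on both entries. The sources used here do not give how such a read was assigned. Since every 5p sequence is also held by its hairpins, in 3 references for let-7a, let-7c and let-7f and in 2 for the others, the value of every member and every share above depends on that assignment, the comparison with let-7d included.

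Hairpin references held 66.0% ± 3.19 (SD, n = 24) of the family's reads in a library. Each 5p sequence is also part of its hairpin, as the lines below show, with the mature arms in capitals and positions from RefSeq, GRCm38.p6. No build is named for the deposited tables. Let-7d is shown because its share of 3′ reads was the highest. The let-7f hairpins are shown because they carry the same guide strand yet drew unequal reads.
mmu-let-7d, chr13:48536012-48536114, minus strand: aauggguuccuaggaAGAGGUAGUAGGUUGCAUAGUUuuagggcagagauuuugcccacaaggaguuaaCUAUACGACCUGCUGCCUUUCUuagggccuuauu
mmu-let-7f-1, chr13:48537829-48537917, minus strand: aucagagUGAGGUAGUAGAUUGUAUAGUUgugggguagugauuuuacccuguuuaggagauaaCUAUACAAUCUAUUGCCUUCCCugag
mmu-let-7f-2, chrX:151912346-151912428, plus strand: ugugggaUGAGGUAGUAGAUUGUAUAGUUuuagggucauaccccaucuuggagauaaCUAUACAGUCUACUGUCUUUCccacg
The tables do not say where in a reference a read lay, so a hairpin read can come from the arm, the loop or the flanks, and mature and hairpin entries of a precursor are not independent measurements. Let-7a-5p and its hairpins let-7a-1 and let-7a-2 had 424, 414 and 436 reads, which gives the mature entry 33.3% (95% exact interval 30.7 to 35.9). Let-7c-5p had 654 reads beside 757 on let-7c-1 and 708 on let-7c-2, or 30.9% (28.9 to 32.9). Let-7f-5p had 344 reads beside 580 on let-7f-1 and 280 on let-7f-2, or 28.6% (26.0 to 31.2). Among members with a single hairpin the mature share ran from 22.6% (16.1 to 30.3) for let-7e to 42.6% (38.0 to 47.3) for let-7g. An even assignment of arm reads over the references that hold them would give 33.3% for let-7a, let-7c and let-7f and 50.0% for the others, and the part of read assignment in these splits was not tested.

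Of the precursors with a shared guide strand, the let-7f hairpins stood furthest apart. Let-7f-1 exceeded let-7f-2 by 1.11 RPM (SD of the difference 0.645, n = 24) and was the higher in 23 of 24 libraries. Let-7a-1 and let-7a-2 differed by -0.05 RPM (SD 0.629), and let-7c-1 and let-7c-2 by 0.19 RPM (SD 0.750), less than the spread between libraries in both cases. The excess of let-7f-1 was 1.16 ± 0.480 RPM (SD, n = 6) in controls, 1.26 ± 0.617 under DBP, 1.54 ± 0.378 under DEHP and 0.484 ± 0.662 under the mixture. Let-7f-1 was the higher in 6 of 6 libraries of the first 3 groups and in 5 of 6 of the mixture.

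**Figure D2:**
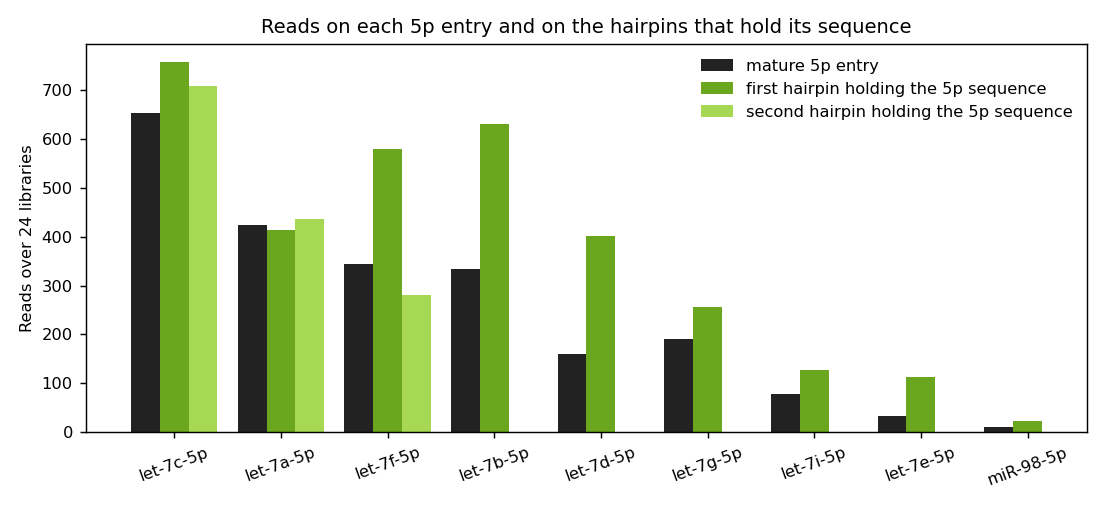
Reads over the 24 libraries (vertical axis, linear) on each mature 5p entry and on the hairpin references that contain its sequence. The bars of let-7a are about level at 424, 414 and 436 reads, whereas let-7f has 580 reads on the first hairpin and 280 on the second.

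By genome position and over all libraries, the chromosome 13 cluster of let-7a-1, let-7f-1 and let-7d had 1396 hairpin reads in a stretch of 2261 bases and the chromosome 15 pair let-7c-2 and let-7b had 1338. Their means of 5.14 ± 1.16 and 4.93 ± 1.24 RPM (SD, n = 24) were closer than the spread between libraries. Fewer reads lay on let-7c-1 on chromosome 16 with 757, let-7a-2 on chromosome 9 with 436 and the chromosome X pair let-7f-2 and mir-98 with 303. The chromosome 13 cluster stood at 5.11 ± 1.16 RPM (SD, n = 6) in controls, 4.59 ± 1.16 under DBP, 6.28 ± 0.883 under DEHP and 4.61 ± 0.691 under the mixture. The chromosome 15 pair stood at 4.26 ± 1.13 RPM in controls, 4.90 ± 1.22 under DBP, 5.64 ± 1.51 under DEHP and 4.91 ± 0.948 under the mixture, and so had the higher mean under DBP and the mixture. The 3 hairpins of the chromosome 13 cluster had unlike values in the edgeR fit described below, with log2 differences between DEHP and control of 0.52 for let-7a-1, 0.39 for let-7f-1 and -0.19 for let-7d, none past the threshold.

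The next question was whether either phthalate, or both together, altered the family. All features were fitted together with edgeR (quasi-likelihood test, two-sided, Benjamini-Hochberg adjustment over 7454 features, lane as a term). Of the 36 members, 13 passed the filter on low counts, the 4 guide strands let-7a-5p, let-7b-5p, let-7c-5p and let-7f-5p and 9 hairpins. The hairpins were let-7a-1, let-7a-2, let-7b, let-7c-1, let-7c-2, let-7d, let-7f-1, let-7f-2 and let-7g. The other 23 members, let-7g-5p, let-7d-5p and let-7i-5p among them, had too few reads and were not tested. None of the 13 passed an adjusted p of 0.05 in any comparison, against 0% of all features tested in DBP vs control, DEHP vs control, mixture vs control and DBP vs DEHP alike. The criterion in the labels, a fold change of at least 1.5 with p under 0.01, taken here as unadjusted, was also met by 0 members. Among all features 0.724% met it in the DBP comparison, 0.389% in the DEHP comparison and 0.416% in that of the mixture. At an unadjusted p under 0.05, 0 of 13 members stood out in each of these comparisons with control, where 4.91%, 2.92% and 2.72% of all features did. DESeq2 called 0 members as well. Without libraries 5 and 6 of each group 0 members were called in any comparison. The log2 ratios of the summed mature arms described below then became -0.10 in DBP vs control, 0.32 in DEHP vs control, -0.15 in mixture vs control and -0.43 in DBP vs DEHP.

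Under DBP the let-7 levels lay across those of the controls in both directions. The summed mature arms were at 7.33, 8.65 and 11.9 RPM (lowest, median and highest of 6) in controls and at 7.61, 8.16 and 11.8 RPM under DBP. The means were 8.99 ± 1.71 and 8.68 ± 1.56 RPM (SD, n = 6), a log2 ratio of -0.05 that became 0.05 when scaled to the microRNA class and 0.01 with TMM-adjusted totals. Within lane 6 the ratio was -0.38 and within lane 7 it was 0.30. Only 1 DBP library, replicate 4, lay above the control mean. Of the 13 members tested, 7 were above 0 and 6 below, with a median log2 difference of 0.01 (-0.11 without DBP replicate 4, with 2 above 0 and 11 below), where 48.5% of all features were above 0 and their median was -0.01.

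The let-7b hairpin had the largest difference in the DBP comparison. It stood at 1.32, 1.96 and 3.20 RPM in controls and at 1.89, 2.53 and 3.32 RPM under DBP, so the groups overlapped although 5 of 6 DBP libraries lay above the control mean. Its log2 difference was 0.45 ± 0.25 (SE, adjusted p = 0.934, edgeR), and 0.26 without DBP replicate 2. For the mature let-7b-5p, at 0.678, 1.27 and 1.62 RPM in controls and 0.835, 1.25 and 1.84 RPM under DBP, it was 0.09 ± 0.33. In the other direction, the let-7a-2 hairpin was at 1.15, 1.30 and 3.51 RPM in controls and at 0.683, 1.10 and 2.38 RPM under DBP. Its log2 difference of -0.31 ± 0.37 became -0.03 without control replicate 2, the highest control library, and -0.72 without DBP replicate 4. Let-7a-5p was at 1.07, 1.55 and 2.50 RPM in controls and at 0.728, 1.40 and 1.90 RPM under DBP (log2 difference -0.29 ± 0.28, adjusted p = 0.963, edgeR). Without control replicate 5 that difference was -0.14, and without DBP replicate 4 it was -0.54.

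Untested for low counts, let-7d-3p had 0 to 4 reads in the DBP libraries. Its level was 0.0780, 0.269 and 0.593 RPM in controls and 0, 0.0963 and 0.272 RPM under DBP, where no library lay above the control mean of 0.305 RPM. The ranges overlapped. Let-7a-1-3p, whose sequence is that of let-7c-2-3p, had at most 4 reads in a library and medians of 0.200 RPM in controls, 0.187 under DBP, 0.0893 under DEHP and 0.151 under the mixture. Let-7g-5p was at 0.424, 0.734 and 0.936 RPM in controls and at 0.546, 0.825 and 1.56 RPM under DBP, overlapping as well. Let-7d-5p was at 0.383, 0.526 and 0.933 RPM in controls and at 0.195, 0.731 and 1.00 RPM under DBP. Let-7i-5p was at 0.0848, 0.309 and 0.405 RPM and at 0.0910, 0.282 and 0.712 RPM. These guide strands share the GAGGUAG seed with the tested ones. Under DEHP let-7g-5p was at 0.378, 0.539 and 0.951 RPM, let-7d-5p at 0.181, 0.669 and 0.856 RPM and let-7i-5p at 0, 0.315 and 0.750 RPM. Under the mixture they were at 0.248, 0.553 and 1.32 RPM, at 0.181, 0.512 and 0.943 RPM and at 0, 0.215 and 0.489 RPM in the same order. Every one of these ranges overlapped that of the controls.

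Under DEHP 11 of the 13 tested let-7 entries had a log2 difference from control above 0, or 8 when DEHP replicate 4 was left out, and none passed the test. The summed mature arms were at 8.67, 10.3 and 13.7 RPM under DEHP, with a mean of 10.9 ± 2.27 RPM (SD, n = 6) against 8.99 ± 1.71 in controls. The log2 ratio of the means was 0.28 over both lanes, 0.25 within lane 6 and 0.31 within lane 7, and 4 of 6 DEHP libraries lay above the control mean. Mature arms and hairpins together were at 31.4 ± 6.45 RPM under DEHP against 25.9 ± 4.87 in controls. The median log2 difference of the 13 members was 0.29, became 0.17 when the microRNA class was scaled alone (9 above 0 and 4 below), and was 0.03 without DEHP replicate 4. Among all features 46.4% were above 0 and the median was -0.02. The members share libraries, and mature arms share sequence with their hairpins, so they are not separate measurements.

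Let-7f-5p came closest to the threshold in this comparison. It stood at 0.699, 0.938 and 2.03 RPM in controls and at 1.01, 1.62 and 2.76 RPM under DEHP. Of the DEHP libraries 5 of 6 lay above the control mean, while the top control library exceeded all but the highest of them. The log2 difference was 0.57 ± 0.28 (SE) with a 95% interval that ended at 0.00 and 1.15 and an adjusted p of 0.999 (edgeR). Leaving out single libraries moved it between 0.37, without DEHP replicate 1, and 0.80, without control replicate 2.

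Let-7c-5p, the most read guide strand, was at 1.17, 2.15 and 3.28 RPM in controls and at 1.75, 2.99 and 4.55 RPM under DEHP. Its log2 difference was 0.53 ± 0.32 (adjusted p = 0.999, edgeR), 0.14 within lane 6 and 1.03 within lane 7, and it became 0.28 without DEHP replicate 4. In lane 7 the control libraries were the 3 lowest of their group for this strand. Let-7a-5p, 1 base away in sequence, was at 0.917, 1.77 and 2.77 RPM under DEHP, with a log2 difference of 0.01 ± 0.28 from control, 0.34 within lane 6 and -0.36 within lane 7. Let-7b-5p was at 0.678, 1.27 and 1.62 RPM in controls and 0.909, 1.51 and 2.53 RPM under DEHP, a log2 difference of 0.29 ± 0.33 that became 0.01 without DEHP replicate 4. The order of let-7a-5p and let-7c-5p in this comparison thus turned round between the lanes.

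Among the hairpins, let-7c-2 was at 1.55, 2.17 and 3.04 RPM in controls and at 2.01, 3.57 and 4.73 RPM under DEHP. Its difference of 0.58 ± 0.31 was the largest of the 13 in this comparison, with 5 of 6 libraries above the control mean and an adjusted p of 0.999 (edgeR). Let-7a-1 was at 0.809, 1.36 and 1.95 RPM in controls and 1.33, 1.95 and 2.95 RPM under DEHP (0.52 ± 0.26). Let-7f-1 went from 1.40, 2.16 and 2.81 RPM to 2.01, 2.87 and 3.39 RPM (0.39 ± 0.22). All of these ranges overlapped. Let-7c-1 was at 1.32, 3.02 and 3.43 RPM in controls and 1.67, 3.35 and 5.62 RPM under DEHP (0.29 ± 0.34, and 0.03 without DEHP replicate 4). The let-7d hairpin was at 1.09, 1.83 and 2.07 RPM in controls and 0.818, 1.40 and 2.28 RPM under DEHP, and lay below 0 with -0.19 ± 0.26. The let-7g hairpin, at 0.765, 0.934 and 1.32 RPM and 0.545, 0.853 and 1.71 RPM, did so with -0.10 ± 0.33. Over the 13 members the 95% intervals for DEHP against control reached from -0.78, for the let-7g hairpin, to 1.21, for let-7c-2.

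The means of the marker lists of other sources did not all lie on the same side of control under DEHP. The leukocyte, epithelial, muscle and liver lists had higher means in the DEHP libraries than in controls, the liver list at 0.0954 against 0.0426 RPM. The liver list was 1 miRNA with 21 reads over the 24 libraries. It ranged from 0 to 0.446 RPM under DEHP and from 0 to 0.101 RPM in controls. The testis and ciliated epithelium list had a lower mean, 0.174 under DEHP against 0.290 RPM in controls. With 59 reads over the 24 libraries, it ran from 0 to 0.380 RPM under DEHP and from 0.0780 to 0.855 RPM in controls. The mean of the erythrocyte list was lower too, at 0.0302 against 0.0337 RPM. That list had 10 reads over the 24 libraries, all on 1 of its 3 miRNAs. All 4 on the leukocyte list had reads, with a sum of 0.101 to 0.855 RPM in controls (mean 0.411), 0.182 to 1.42 under DBP (mean 0.727), 0.333 to 1.17 under DEHP (mean 0.744) and 0.211 to 0.703 under the mixture (mean 0.434). The 5 epithelial ones also all had reads, at 0.306 to 1.17 RPM in controls (mean 0.579), 0.390 to 0.884 under DBP (mean 0.608), 0.182 to 2.26 under DEHP (mean 0.898) and 0.452 to 0.978 under the mixture (mean 0.690). All 4 on the muscle list had reads, and their sum was 10.4 to 28.2 RPM in controls (mean 15.02), 6.24 to 33.9 under DBP (mean 13.5), 6.45 to 34.8 under DEHP (mean 19.8) and 4.98 to 28.1 under the mixture (mean 16.05). For each list the ranges of the groups overlapped, and the part of these sources in the let-7 values was not tested.

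**Figure D3:**
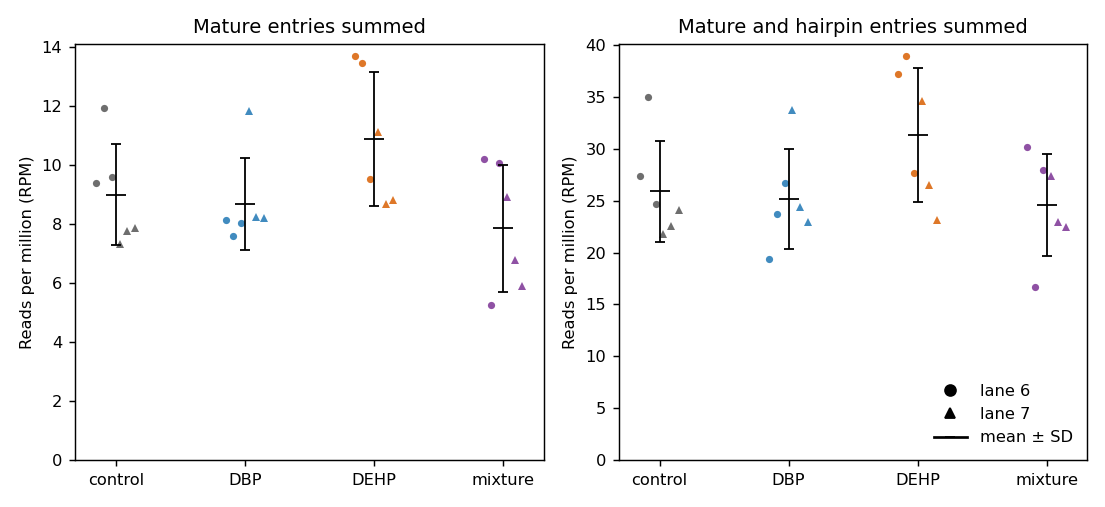
Summed level in RPM of the 22 mature members (left) and of all 36 members (right) in each library by treatment, with circles for lane 6, triangles for lane 7 and bars for the mean ± SD of 6 libraries. The DEHP mean is the highest in both panels, at 10.9 and 31.4 RPM, and the 4 groups overlap.

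Under the mixture the family did not lie higher as a whole. The summed mature arms were at 5.25, 7.85 and 10.2 RPM, with a mean of 7.85 ± 2.16 RPM (SD, n = 6), a log2 ratio of -0.19 to control (-0.28 within lane 6, -0.09 within lane 7). Of the 13 members, 7 were above 0 and 6 below (4 and 9 when the microRNA class was scaled alone), with a median of 0.03 (0.14 without control replicate 2, -0.13 without mixture replicate 1). Among all features 45.6% were above 0 and the median was -0.02. Let-7b-5p was at 0.331, 0.829 and 1.37 RPM under the mixture, where 1 of 6 libraries lay above the control mean, and differed by -0.53 ± 0.35 (adjusted p = 1.00, edgeR), or -0.33 without mixture replicate 5. The let-7b hairpin went the other way, at 2.11, 2.33 and 2.90 RPM with 6 of 6 libraries above the control mean, yet within the control range and at 0.24 ± 0.25. The let-7f-1 hairpin was at 0.905, 1.48 and 2.90 RPM under the mixture, and 1 of 6 libraries lay above the control mean. Its log2 difference was -0.41 ± 0.23, -0.80 within lane 6 and -0.04 within lane 7, and -0.63 without mixture replicate 5.

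**Figure D4:**
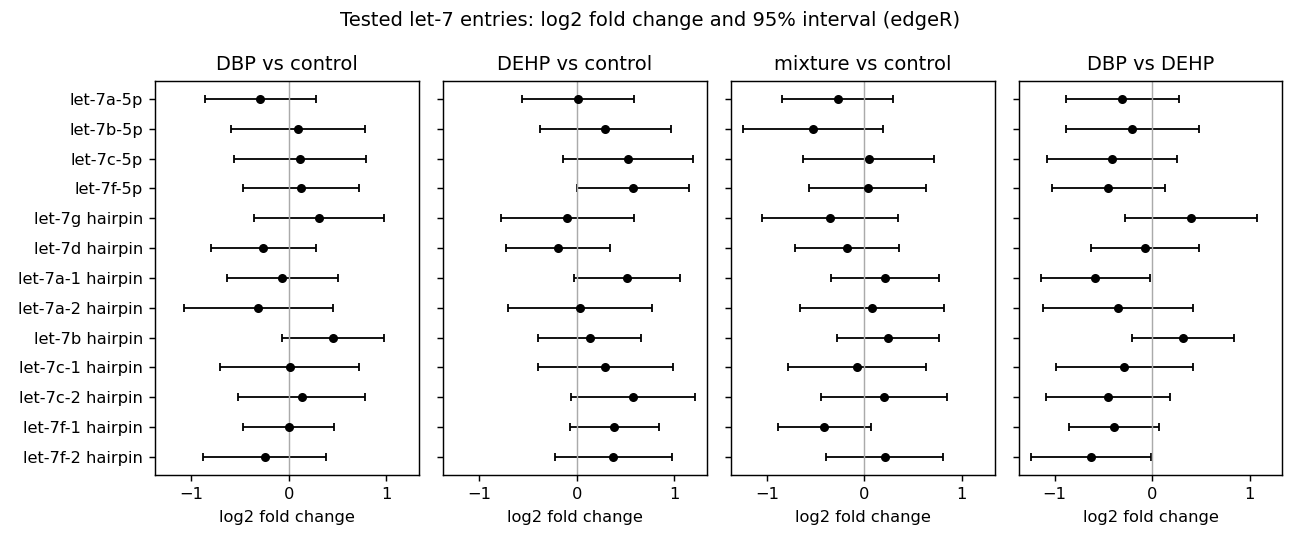
Log2 fold change (points) and 95% interval (bars) of the 13 tested members in DBP, DEHP and mixture against control and in DBP against DEHP, from the edgeR fit. Under DEHP 11 of 13 points lie above 0 (8 without DEHP replicate 4), and in DBP against DEHP 11 of 13 lie below it, but none passed the adjusted threshold.

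DBP and DEHP, given at the same dose by mass for the same time, were then compared directly. Both are phthalate diesters and differ in their side chains, straight butyl in DBP and the longer, branched ethylhexyl in DEHP. This was the only pair of single compounds, so no further adjustment over pairs was needed. The log2 ratio of the summed mature arms, DBP over DEHP, was -0.33 over both lanes, -0.63 within lane 6 and -0.02 within lane 7. Of the 13 members, 11 lay lower under DBP than under DEHP over both lanes, 9 within lane 6 and 8 within lane 7, while 52.2% of all features were above 0. Their median of -0.35 became -0.20 when the microRNA class was scaled alone (10 lower) and -0.55 without DBP replicate 4. At an unadjusted p under 0.05 there were 2 members (3.53% of all features reached it), and 0 met the criterion of the labels (0.376% of all features). The let-7a-1 hairpin differed by -0.58 ± 0.27 (95% interval -1.14 to -0.02, adjusted p = 1.00, edgeR), from 0.813, 0.974 and 1.97 RPM under DBP and 1.33, 1.95 and 2.95 RPM under DEHP. The let-7f-2 hairpin differed by -0.63 ± 0.30 (-1.25 to -0.01, adjusted p = 1.00, edgeR), from 0.473, 0.685 and 1.37 RPM and 0.629, 1.30 and 1.64 RPM. Both pairs of ranges overlapped. Both differences were larger in lane 6, at -1.09 and -0.98, than in lane 7, at -0.20 and -0.28. No member was thus shown to respond differently to the esters, and with intervals this wide they were not shown to act alike either. The DEHP libraries are shared between this comparison and that with control, so the 2 are not separate evidence.

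Whether the mixture departed from the sum of its components was asked with the contrast of mixture and control against the single agents on the log scale. None of the 13 members passed the adjusted threshold, against 0% of all features, or met the criterion of the labels, against 0.429%. At an unadjusted p under 0.05 there was 1 member (4.04% of all features reached it), the let-7f-1 hairpin. Its value was -0.80 ± 0.32 (adjusted p = 0.993, edgeR). Let-7b-5p had a value of -0.91 ± 0.48. Of the 13 members 9 lay below 0, with a median of -0.38 that became -0.14 within lane 6, -0.26 within lane 7, -0.25 without DBP replicate 2 and -0.18 without DEHP replicate 4, against 50.9% of all features above 0.

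Some let-7 hairpins lie beside hairpins of the miR-99, miR-100 and miR-125 families, whose members are often transcribed with them. RefSeq places mir-99a 656 bases from let-7c-1 and mir-125a 367 bases from let-7e, and mir-100 and mir-125b-1 lie 5211 and 45114 bases from let-7a-2. The most read of these neighbours were the hairpin mir-125b-2 with 303 reads, miR-125b-5p with 238 and the hairpin mir-125b-1 with 216. Mir-125b-2 was at 0.910 ± 0.378 RPM (SD, n = 6) in controls, 0.959 ± 0.422 under DBP, 1.29 ± 0.195 under DEHP and 1.35 ± 0.425 under the mixture. None of the 5 neighbour entries that were tested passed the adjusted threshold in any comparison. The largest difference from control was that of miR-125a-5p under DEHP, 1.13 ± 0.53 (adjusted p = 0.999, edgeR). The hairpin let-7e, next to mir-125a, had 113 reads and was at 0.535 ± 0.207 RPM in controls, 0.303 ± 0.280 under DBP, 0.518 ± 0.222 under DEHP and 0.283 ± 0.138 under the mixture, untested for low counts. Mir99ahg, the host RNA of let-7c-1 and mir-99a, had 214 reads over 13 transcripts, none of which passed the filter.

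The miRNA entries whose pattern over the 24 libraries was most like the summed mature let-7 level were taken from 199 entries with at least 240 reads. They were miR-21a-5p (Spearman's rho 0.75, Pearson's r 0.70), miR-143-3p (0.74 and 0.67), which is on the muscle list, and the hairpin mir-5112 (0.72 and 0.72). These values describe libraries that share lanes, groups and a common denominator, and they were picked as the highest of many.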

How the data were processed

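Small RNA of 24 epididymosome libraries had been prepared by the authors with the SMARTer smRNA-Seq kit, per the labels' protocols. Adapters were removed with cutadapt and reads aligned with STAR 2.7.6a, per the submitters' processing notes, and classes were searched in the order miRNA, tRNA, piRNA, rRNA, circRNA, lncRNA, per the labels. The deposited values are read counts per reference, and the row that names no feature held 0 reads. The sources used here do not name the genome build, the counter, the strand or the treatment of reads with several matches. Lane was read from the names of the sequencing runs.

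The counts of the 6 classes were joined, filtered by group with filterByExpr, scaled by TMM and fitted with edgeR 4.0.16 in R 4.3.3 (quasi-likelihood, a term per group and lane, all 24 libraries, biological coefficient of variation 34.6%). P-values rest on the spread between libraries. DESeq2 1.42.0 was an alternative. The fit was tested on simulated data. RPM are reads per 1000000 reads of the 6 classes. Sums over members got no test. Members tested were named, as were mature members with at least 48 reads and hairpins with at least 240. Members and lists were chosen with earlier results of these data known. The class named otherRNA was not used here. Same-numbered libraries were not taken as paired. Other settings were the scaling, the filter, the lane term, a replicate block, single lanes and leaving out libraries.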

Additional observations from a re-analysis of the deposited data

Results flagged for a closer look

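In groups of 6 libraries a value was picked out, and none removed, when the gap to its nearest neighbour exceeded the critical share of the group's range in Dixon's test. Of 96 such groups examined, over 18 named members and their sums, 10 had such a value. The chance rate of about 1 in 20 holds for independent, normally distributed values. Here the sums contain the members and many counts are low, so an excess over chance was not shown. Several rest on few reads.

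Let-7d-3p stood at 1.07 RPM, from 12 reads, in DEHP replicate 2, with the next DEHP library at 0.285. Let-7a-1-3p stood at 0.390 RPM, from 4 reads, in DBP replicate 2, with the next at 0.204. Let-7f-5p was at 1.96 RPM in mixture replicate 3, with the next at 1.14. The let-7g hairpin was at 1.32 RPM in control replicate 5 (next 0.936) and at 1.71 RPM in DEHP replicate 1 (next 0.917). The let-7a-2 hairpin was at 3.51 RPM, from 45 reads, in control replicate 2, with the next control library at 1.48.

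DBP replicate 4 was the highest of its group for let-7c-5p, at 3.40 RPM from 50 reads with the next at 2.28. The same library gave the highest summed mature level, 11.8 RPM (next 8.25), and the highest sum of 5′ arms, 10.6 RPM (next 7.66). Without it, let-7c-5p differed from control by -0.11 in place of 0.11 on the log2 scale. The lowest hairpin share among controls, 61.1%, was that of control replicate 3 (next 65.5%).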

How the results depend on the processing

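No member was called at an adjusted p of 0.05 under any setting in any of the 5 comparisons: DESeq2, DESeq2 size factors, library totals, the microRNA class alone, no filter, no lane term, either lane alone, each library left out in turn, and, added after seeing the data, all libraries 5 and 6 left out. The lowest adjusted p of a member over these settings was 0.512 for DBP, 0.830 for DEHP, 0.642 for the mixture, 0.754 for DBP vs DEHP and 0.719 for the interaction. Without the filter 34 members were tested and 0 called, while 71 of 60115 features were called for DBP. Whether replicate numbers pair the libraries was not settled. Deviations of same-numbered libraries correlated at -0.25 to 0.55 for DBP vs control and -0.03 to 0.64 for DEHP vs control. For mixture vs control they ran from -0.13 to 0.62, and for DBP vs DEHP from 0.02 to 0.59. Own number was the best match in 3, 3, 3 and 1 of 6 in that order. Libraries numbered 5 and 6 correlated at 0.40 to 0.64 with those of the same number in each of these comparisons. With the replicate block 0 members were called.

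The log2 ratio of the summed mature arms moved by more than the spread between libraries in lane 6 (-0.38 for DBP vs control, -0.63 for DBP vs DEHP) and in lane 7 (0.30 and -0.016), from -0.05 and -0.33. The cause was not tested. With single libraries left out these ratios ran from -0.16 to 0.05 for DBP, 0.20 to 0.37 for DEHP, -0.28 to -0.10 for the mixture and -0.44 to -0.25 for DBP vs DEHP. Of 442 values of single members per comparison, the sign changed in 41 for DBP, 22 for DEHP, 25 for the mixture, 9 for DBP vs DEHP and 22 for the interaction. Scaling the microRNA class alone moved the median of its features by -0.11 for DEHP and 0.14 for DBP vs DEHP, and library totals moved that of all features by -0.10 for DBP vs DEHP. Few reads per library limit every member.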
